A study of Mus musculus with 11 samples.

Results

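The airway secretory products described here are 9 mouse genes, Scgb1a1, Scgb3a1, Scgb3a2, Bpifa1, Muc5b, Reg3g, Retnla, Cyp2f2 and Ltf. They were taken by exact gene symbol, and all 9 were found among the 31053 genes of the deposited count tables. The tables hold droplet-based 3′ single-cell RNA sequencing of dissociated mouse lung, counted as unique molecular identifiers (UMIs, 1 for each captured RNA molecule), in 11 libraries. The libraries are labelled with 4 genotypes at p21, the gene Cdkn1a, whose product stops the cell cycle. There is 1 wild type library (WT, +/+), 3 libraries of p21 heterozygotes (p21Het, +/-), 5 libraries of p21 mTert (p21mTert, +/mTert) and 2 libraries of p21 mTertCD (p21mTertCD, +/mTertCD). mTert is the mouse gene of the catalytic subunit of telomerase, and the series title names its induction in cells that express p21. The labels do not spell out CD. All groups but the wild type carry 1 altered p21 allele beside a + allele, so the heterozygotes share with both mTert groups the loss or alteration of 1 copy. The mice were 18 months old by the age label, except the mouse of p21Het_1 at 19 and that of p21mTert_1 at 20 months. Each library was treated as 1 replicate. Nothing in the labels ties libraries to litters or days, so the p-values measure the spread between these libraries.

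Club cells are the dome-shaped secretory cells of the mouse bronchiolar lining, and they stand beside ciliated cells, whose beating moves the airway fluid. Secretoglobins are small proteins that club cells release in bulk. Scgb1a1, the club cell secretory protein, is the textbook marker of these cells, Scgb3a2 is a secretoglobin of the distal bronchioles and Scgb3a1 is one of larger airways. Muc5b is the gel-forming mucin needed for mucociliary clearance, and Bpifa1 (SPLUNC1) is a secreted lipid-binding and antibacterial protein of upper and large airways. Reg3g is a secreted lectin that binds Gram-positive bacteria, Ltf encodes the iron-binding protein lactoferrin, and Retnla (FIZZ1, RELMα) is a secreted resistin-like protein induced by type 2 cytokines. Cyp2f2 is the exception in the group, since it is a cytochrome P450 of the endoplasmic reticulum that oxidises naphthalene and is not secreted. It is listed with the others because it is a classical club cell product.

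4 of the 9 genes are also known from other cells of the lung or its immune infiltrate, and in these data they were read in a cell class beside club cells: Reg3g and Cyp2f2 in ciliated cells, Retnla in alveolar type 2 cells and interstitial macrophages, and Ltf in neutrophils. The 190 bases before their transcription start (the earlier of the RefSeq and GENCODE starts) are therefore shown, 5′ to 3′ along the gene's strand, from RefSeq's GRCm38.p6 table, in which 6 of the 9 genes were matched. Capitals mark the matches listed for the motifs searched, for the TATA box on the gene's strand only.
Reg3g, chr6:78468875-78469064, minus strand: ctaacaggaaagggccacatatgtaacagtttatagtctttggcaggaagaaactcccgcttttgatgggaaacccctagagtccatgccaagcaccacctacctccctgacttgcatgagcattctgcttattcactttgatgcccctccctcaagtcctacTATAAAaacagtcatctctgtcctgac
Retnla, chr16:48842361-48842550, plus strand: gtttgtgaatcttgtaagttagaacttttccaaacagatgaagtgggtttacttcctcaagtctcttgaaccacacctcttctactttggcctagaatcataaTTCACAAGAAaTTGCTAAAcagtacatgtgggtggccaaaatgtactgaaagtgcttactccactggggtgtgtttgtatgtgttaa
Cyp2f2, chr7:27119719-27119908, plus strand: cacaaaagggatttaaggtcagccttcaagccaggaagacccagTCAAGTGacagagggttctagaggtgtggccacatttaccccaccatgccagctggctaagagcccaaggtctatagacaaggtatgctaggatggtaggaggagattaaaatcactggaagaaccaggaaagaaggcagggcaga
Ltf, chr9:111019081-111019270, plus strand: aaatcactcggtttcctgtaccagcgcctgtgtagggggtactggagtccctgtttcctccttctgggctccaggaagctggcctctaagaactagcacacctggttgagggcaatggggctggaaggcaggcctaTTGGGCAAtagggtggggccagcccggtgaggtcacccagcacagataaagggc

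The motifs were searched in the same window of 32851 genes. Matches are listed on both strands, except for the TATA box, listed on the gene's strand only. The reversed TATA letters tttata in the Reg3g window are therefore left in lower case. The Retnla window holds the STAT6 spacing TTCNNNNGAA, found in 4.20% of all windows, and right after it a C/EBP core TTGCNNAA, found in 7.07%. STAT6 is the transcription factor that carries the interleukin-4 and interleukin-13 signal, and C/EBP factors act in myeloid and in lung epithelial cells. The Cyp2f2 window holds TCAAGTG, the core of NKX2-1 sites, found in 2.00% of windows. NKX2-1 is the homeodomain factor of lung epithelium. The Ltf window holds the C/EBP core on its minus strand, and the Reg3g window holds a TATA box, TATAAA, found in 5.93% of windows. These matches describe the letters of the windows and show no binding. The STAT3 spacing TTCNNNGAA (5.19% of windows) and the FOXA core TNTTTAC (8.07%) were searched as well and did not match in these 4 windows.

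The 11 tables hold 81983 cell barcodes and 694524094 UMIs, from 42038434 to 85988955 per library. A barcode was kept when it held 1000 to 30000 UMIs, no more than 14% of them mitochondrial, which left 69267, with medians of 4133 to 6454 UMIs per library. Cells were sorted into 18 classes by markers that include none of the 9 genes, and classes with fewer than 20 cells in a library were not summed there. 311 kept barcodes were gated as club cells, 14 to 52 per library. Of the 10 genes with the highest fold in the club gate, 6 were members (Scgb3a1, Scgb3a2, Scgb1a1, Muc5b, Bpifa1 and Reg3g), Gabrp was a marker of the gate, and Bpifb1, Tff2 and Clca1 were other airway secretory genes. A UMI of an epithelial marker was found in 88.1% of the club-gated cells and a UMI of Ptprc, the pan-leukocyte gene, in 7.40%. 3 libraries (WT_1, p21Het_1 and p21mTert_1) carry an earlier block of deposit numbers than the other 8, called here the first and the later deposit. Pairs of libraries shared 9 to 83 barcodes. Single libraries stood apart in some members, among them p21mTertCD_1 in club-gated and ciliated-gated cells, p21Het_2 in neutrophil-gated cells and p21Het_3, the lowest for Scgb1a1 over all kept cells, and such values are given beside the results they touch.

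The upper UMI limit removed most of what was counted for these genes. Of 810 club-gated barcodes in all, 311 were kept and 318 lay over 30000 UMIs with a mitochondrial share within the limit, 12 to 58 per library, with a median of 55485.5 UMIs. That is 39.3% of the club-gated barcodes, against 0.427% of the lymphocyte-gated ones. Kept barcodes held 11.7% of the Scgb1a1 UMIs in the deposited tables, 7.43% of Scgb3a1, 9.45% of Scgb3a2 and 3.37% of Bpifa1. The share was 13.5% for Muc5b, 14.3% for Reg3g, 21.9% for Cyp2f2, 26.5% for Retnla and 40.0% for Ltf. Without the upper limit it was 95.7% to 99.1% for the 9 genes. The club-gated barcodes over the limit alone held 90.9% of the Bpifa1 UMIs, 75.0% of Scgb3a1, 74.6% of Reg3g and 47.0% of Scgb1a1. Levels of these genes in kept cells are therefore levels in the smaller-count barcodes of their main source, and values without the upper limit are set beside them where genotypes are compared.

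**Figure D1:**
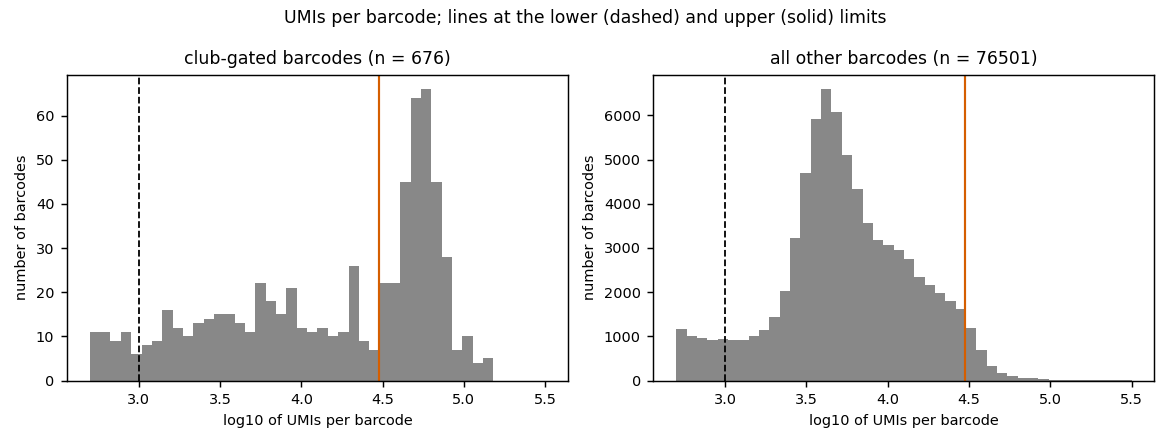
Histogram of barcodes by log10 UMIs per barcode, with at most 14% mitochondrial UMIs, for club-gated barcodes and all others; the dashed line marks 1000 and the solid line 30000 UMIs. Club-gated barcodes lie further to the right, and 318 of them are beyond the solid line.

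Scgb1a1 RNA was found in nearly every cell of every class. In lymphocytes (T, B and NK cells), which do not make it, 98.8% of kept cells held a Scgb1a1 UMI, with a median of 7 and a 95th percentile of 18 per cell. Levels are given as CPM, the UMIs of a gene per 1000000 UMIs of the library's cells in question. The lymphocyte level was 1551 in WT_1, 2923, 1054 and 803 in p21Het_1 to 3, 1753, 2976, 1536, 2339 and 2580 in p21mTert_1 to 5, and 958 and 486 in p21mTertCD_1 and 2. These lymphocyte levels were read as the level of free RNA, and a member in another class was read against them. Muc5b (0.0939 to 1.64 CPM), Reg3g (0.225 to 1.64) and Ltf (0.235 to 1.53) were close to 0 in lymphocytes. Per 1000 Scgb1a1 UMIs the median library held 24.8 Scgb3a2 UMIs in lymphocytes, 20.4 in endothelial cells and 28.9 in club cells, so these secretoglobins stood in similar proportion in the 3 classes. For Scgb3a1 the 3 median ratios were 6.44, 9.46 and 7.94, but single libraries differed in both directions. Club cells held 81.3 and lymphocytes 33.1 in p21mTertCD_1, against 0.690 and 7.34 in p21mTertCD_2. Bpifa1 did not stand in similar proportion, with median ratios of 1.90, 1.88 and 0.141.

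The 3 secretoglobins were highest in the club gate. A kept club-gated cell held a median of 2665 Scgb1a1 UMIs, against 14 in alveolar type 2 (AT2) cells, 13 in ciliated cells and 6 in neutrophils. Scgb1a1 (chromosome 19, 9083636 to 9087958, minus strand, GRCm38) made up a median of 52.7% of all UMIs of a club-gated cell, and from 0.0292% to 78.3% over single cells. Against lymphocytes of the same libraries, edgeR's quasi-likelihood test across 9 libraries with at least 20 club cells gave log2 differences of 8.76 for Scgb1a1 (SE 0.41, adjusted p = 3.74e-44), 8.88 for Scgb3a2 (SE 0.40, adjusted p = 8.08e-46) and 8.93 for Scgb3a1 (SE 0.46, adjusted p = 2.17e-39). All 9 members passed this test upward, where 20.7% of the 14494 genes tested did and the median log2 difference of all genes was -0.53. Scgb1a1 in ciliated cells did not pass (log2 difference 0.42, adjusted p = 0.172), while in AT2 cells it was 1.23 (SE 0.29) and in alveolar type 1 cells, where 22.8% of genes were called higher, 2.82 above the lymphocytes. The pooled levels were 3332 CPM in AT2, 3621 in ciliated, 10923 in alveolar type 1 and 1702 in lymphocyte-gated cells. Erythroid cells, which make no secretoglobin, were put at 3.71 by the same fit (15.3% of genes called higher), although their pooled level of 1974 CPM was close to that of lymphocytes, and without TMM scaling they were at 0.28 (adjusted p = 0.391) and AT2 cells at 1.04. The alveolar type 1 level rested on few cells, since the 10 highest of 343 held 86.9% of its Scgb1a1 UMIs and the median cell held 8. 7 alveolar type 1, 31 AT2-gated, 28 ciliated-gated and 20 lymphocyte-gated kept cells had over 10% of their UMIs in Scgb1a1, against 288 club-gated ones. So had 94 kept barcodes with no class.

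Scgb1a1 and Scgb3a2 were detected in most club cells and Scgb3a1 in a minority. After each cell was thinned to 1000 UMIs, 99.7% of club-gated cells held a Scgb1a1 UMI, 87.8% a Scgb3a2 UMI and 24.4% a Scgb3a1 UMI. The thinned shares in lymphocytes were 70.9%, 3.74% and 1.33%, so for Scgb1a1 the share of cells with a UMI separates the classes little, and 288 of the 311 club-gated cells had over 10% of their UMIs in it. Before thinning, Scgb3a2 was found in 93.2% of club-gated and 15% of lymphocyte-gated cells and Scgb3a1 in 35.4% and 5.77%, at median depths of 5885 and 4884 UMIs. Scgb3a1 (chromosome 11, 49663610 to 49665118, plus strand) varied more by library in the club gate than the other secretoglobins, from 223 CPM in p21mTert_5 to 32425 in p21mTertCD_1. Scgb3a2 (chromosome 18, 43764289 to 43767399, plus strand) ranged from 6533 to 16741 over the 9 libraries with at least 20 club cells, over which Scgb3a1 had the same ends as given.

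**Figure D2:**
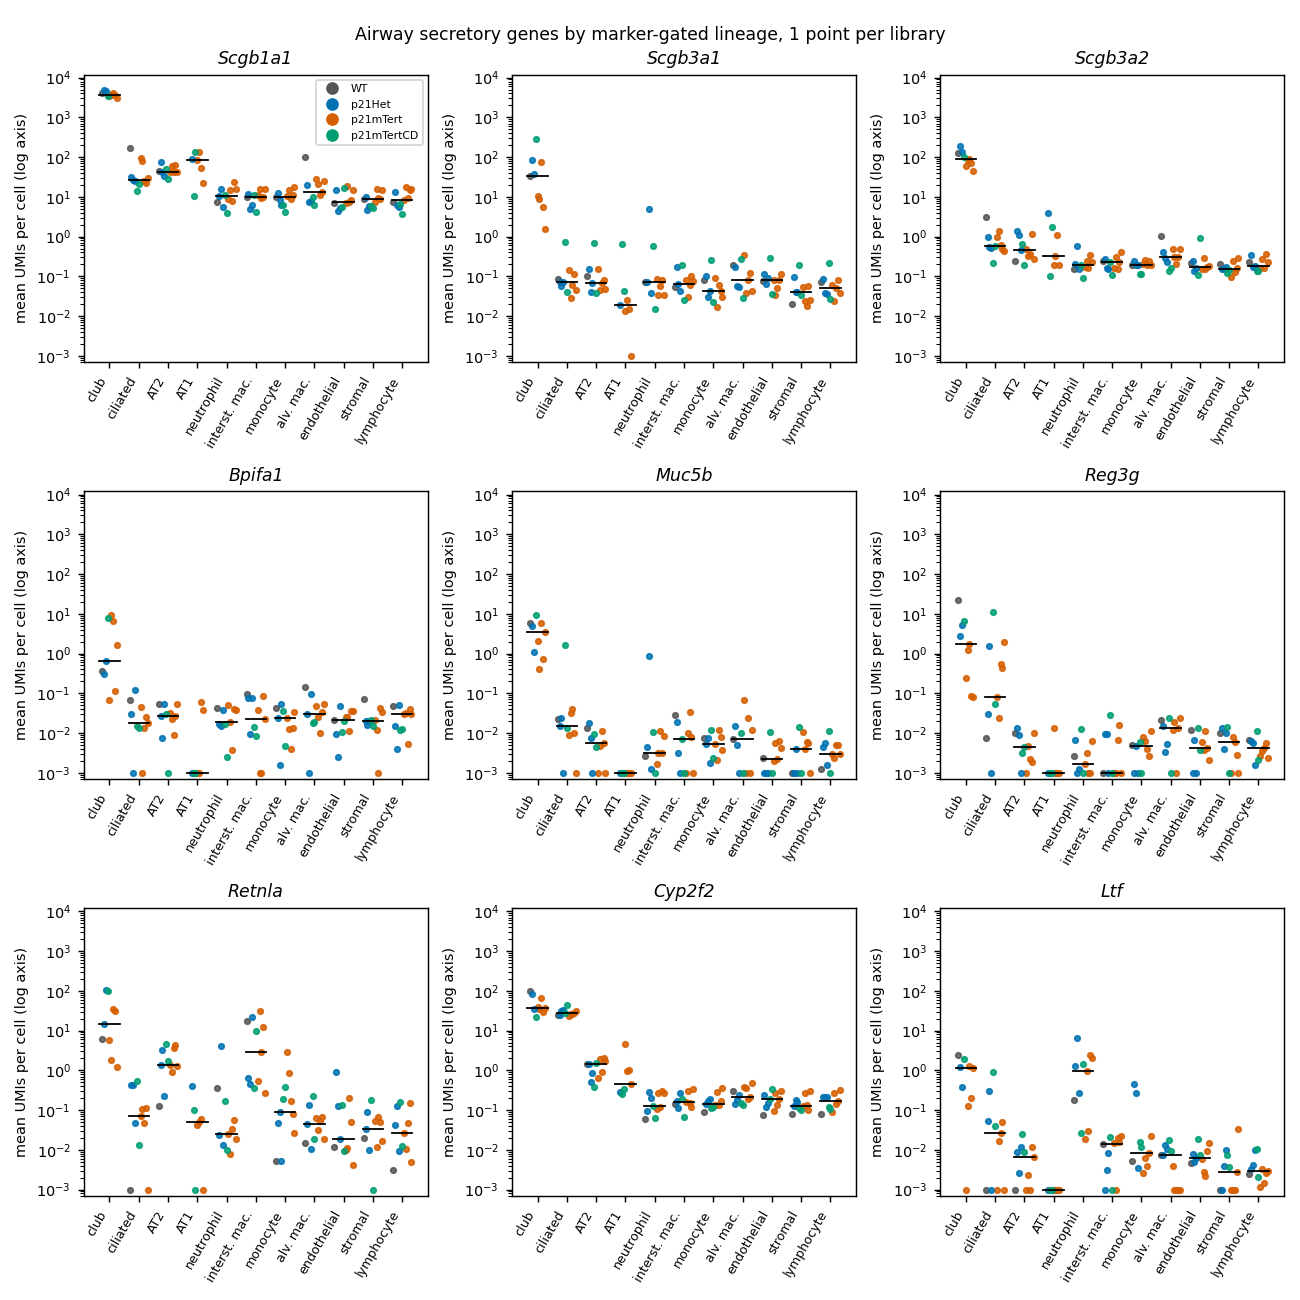
Mean UMIs per cell of each member by cell class on a log axis, 1 point per library with at least 20 cells of the class, coloured by genotype, with a bar at the median and 0 drawn at 0.001. The median of each of the 9 members is above its lymphocyte median in the club gate, and Cyp2f2, Reg3g, Retnla and Ltf have a further class well above it.

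The UMIs of Bpifa1 and Reg3g in the club gate lay in a small number of cells, and those of Muc5b were spread more widely. Muc5b (chromosome 7, 141839070 to 141873084, plus strand) was 9.59 log2 units above lymphocytes in club cells (SE 0.53, adjusted p = 3.45e-36), and 15.8% of thinned club-gated cells held it against 0.0880% of lymphocytes (25.4% and 0.362% before thinning). Bpifa1 (chromosome 2, 154142880 to 154149219, plus strand) was 7.31 log2 units above (SE 0.38) and was found in 5.47% of thinned club cells against 0.499% (10.3% and 2.19% before thinning). 12 club-gated cells held 10 or more Bpifa1 UMIs, and the 10 highest cells carried 93.6% of all its UMIs in the gate. Muc5b had 32 such cells and Scgb3a1 64. A level of Bpifa1 in the club gate of a library thus rested on a handful of barcodes.

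Reg3g (chromosome 6, 78466269 to 78468872, minus strand) was read in both airway classes. Its log2 difference from lymphocytes was 9.10 in club cells (SE 0.41, adjusted p = 2.09e-44) and 5.57 in ciliated cells (SE 0.38). Reg3g, Cyp2f2, Ltf and Muc5b were the 4 members called higher in ciliated cells, as were 37.2% of all genes, and Muc5b there turned to -0.21 with a stricter gate (a lead of 0.2 in marker share). The ciliated gate held 58.1% of the kept Reg3g UMIs and the club gate 32.6%, an order that rested on p21mTertCD_1: without that library the shares were 36.2% and 50.3%. Over all deposited barcodes, the club-gated ones over the UMI limit held 74.6% of the Reg3g UMIs. In ciliated-gated cells the level was 0.592 CPM in WT_1, 2.34, 118 and 0 in the p21Het libraries, 6.81, 1.85, 43.9, 27.9 and 137 in the p21mTert libraries, and 833 and 3.76 in the p21mTertCD libraries. p21mTertCD_1 was highest, and there a single cell held 999 Reg3g UMIs. Over all libraries, 21 ciliated-gated cells held 10 or more UMIs, 8 of them in p21mTertCD_1, and the 10 highest cells carried 88.8% of the gate's UMIs. In the club gate 15 cells held 10 or more, with 89.6% in the 10 highest.

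Cyp2f2 (chromosome 7, 27119909 to 27133660, plus strand) was the member with the broadest airway signal. It was 8.19 log2 units above lymphocytes in club cells (SE 0.29) and 5.76 above in ciliated cells (SE 0.26). The same fit also called it higher in AT2 cells (1.65, SE 0.22), alveolar type 1 cells (2.12, SE 0.28), neutrophils (0.60) and erythroid cells (3.76). In these classes 36.9%, 22.8%, 35.9% and 15.3% of all genes were called higher. AT2-gated cells held 6.54% of its kept UMIs, and in alveolar type 1 cells the 10 highest cells held 87.0% of that gate's Cyp2f2 UMIs. Ciliated-gated cells held 58.6% of its kept UMIs and club-gated cells 18.1%. Over all deposited barcodes, however, the club-gated ones over the UMI limit alone held 36.0% of the Cyp2f2 UMIs, and all kept barcodes together 21.9%. A Cyp2f2 UMI was found in 74.8% of thinned ciliated cells, 88.4% of thinned club cells and 2.91% of thinned lymphocytes. Before thinning the 3 shares were 91.9%, 97.7% and 12.5%, at median depths of 13768.5, 5885 and 4884 UMIs. Its level in ciliated-gated cells was 1886 CPM in WT_1, 1900, 2394 and 2350 in the p21Het libraries, 1922, 1930, 2046, 1854 and 2159 in those of p21mTert, and 2138 and 3146 in those of p21mTertCD. Among the members it was the steadiest across libraries in that class, with p21mTertCD_2 highest. Scgb1a1, which shares the club cell with it, did not pass the test in ciliated cells (adjusted p = 0.172) of the same libraries. The CPM of Scgb1a1 there was above that of lymphocytes in 8 of 11 libraries, and its mean UMIs per cell in all 11. Per 1000 Scgb1a1 UMIs the median library held 1050 Cyp2f2 UMIs in ciliated cells, against 11.8 in club cells and 15.6 in lymphocytes.

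Retnla (chromosome 16, 48842551 to 48844461, plus strand) divided its kept UMIs between club cells (27.7%), interstitial macrophages (24.9%) and AT2 cells (24.6%). Over all deposited barcodes, however, the club-gated ones over the UMI limit alone held 28.6% of the Retnla UMIs, and all kept barcodes together 26.5%. The split of the kept UMIs moved with single libraries. Without p21Het_2 the club share was 19.6% and the macrophage share 33.1%, and without p21mTert_2 the macrophage share was 19.5%. The log2 differences from lymphocytes were 9.03 in club cells (SE 0.82), 7.69 in interstitial macrophages (SE 0.79, with 30.4% of all genes called higher) and 4.71 in AT2 cells (SE 0.69, adjusted p = 4.02e-10, with 36.9% called higher). In AT2 cells the level was 7.6 CPM in WT_1, 86.2, 262 and 12.9 in the p21Het libraries, 108, 50.4, 222, 306 and 86 in those of p21mTert, and 352 and 113 in those of p21mTertCD. In interstitial macrophages it was 1780 in WT_1, 75.6, 41.4 and 1517 in the p21Het libraries, 59.1, 2435, 224, 850 and 19.8 in those of p21mTert, and 30.1 and 724 in those of p21mTertCD. WT_1 and p21Het_3 were the lowest in AT2 cells and among the highest in macrophages, and p21mTertCD_1 was the highest in AT2 cells and among the lowest in macrophages. The macrophage signal came from 39 of 1607 cells with 10 or more UMIs, the highest of which held 1318. In club cells 80 of 311 held 10 or more, among them 35 of 52 cells of p21Het_2 (67.3%) and 16 of 30 of p21mTertCD_1 (53.3%).

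Ltf (chromosome 9, 111019271 to 111042767, plus strand) was, in kept cells, a neutrophil transcript more than an airway one. Neutrophil-gated cells held 83.7% of its kept UMIs and club-gated cells 3.63%. Over all deposited barcodes, however, the club-gated ones over the UMI limit held 45.6% of its UMIs. Its log2 difference from lymphocytes was 8.77 in neutrophils (SE 0.49, with 35.9% of all genes called higher) and 7.95 in club cells (SE 0.66, adjusted p = 2.12e-21). In neutrophils the level was 37.9 CPM in WT_1, 257, 1264 and 47.9 in the p21Het libraries, 4.6, 192, 7.15, 519 and 411 in those of p21mTert, and 5.23 and 301 in those of p21mTertCD. Camp and Ngp, granule genes of immature neutrophils as Ltf is, had the same high and low libraries: Camp was 3022 in p21Het_2, the highest, and 0, 0.89 and 0.63 in p21mTert_1, p21mTert_3 and p21mTertCD_1, the lowest. 42 of 6400 neutrophil-gated cells held 10 or more Ltf UMIs, 14 of them in p21Het_2. After thinning, 4.18% of club cells and 1.16% of neutrophils held an Ltf UMI, against 0.0391% of lymphocytes. 7 members were called higher in neutrophils than in lymphocytes, or 4 without TMM scaling. In p21Het_2 the neutrophil gate also read 949 CPM of Scgb3a1, 775 of Retnla and 162 of Muc5b, and how far these airway UMIs came from other cells was not tested.

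**Figure D3:**
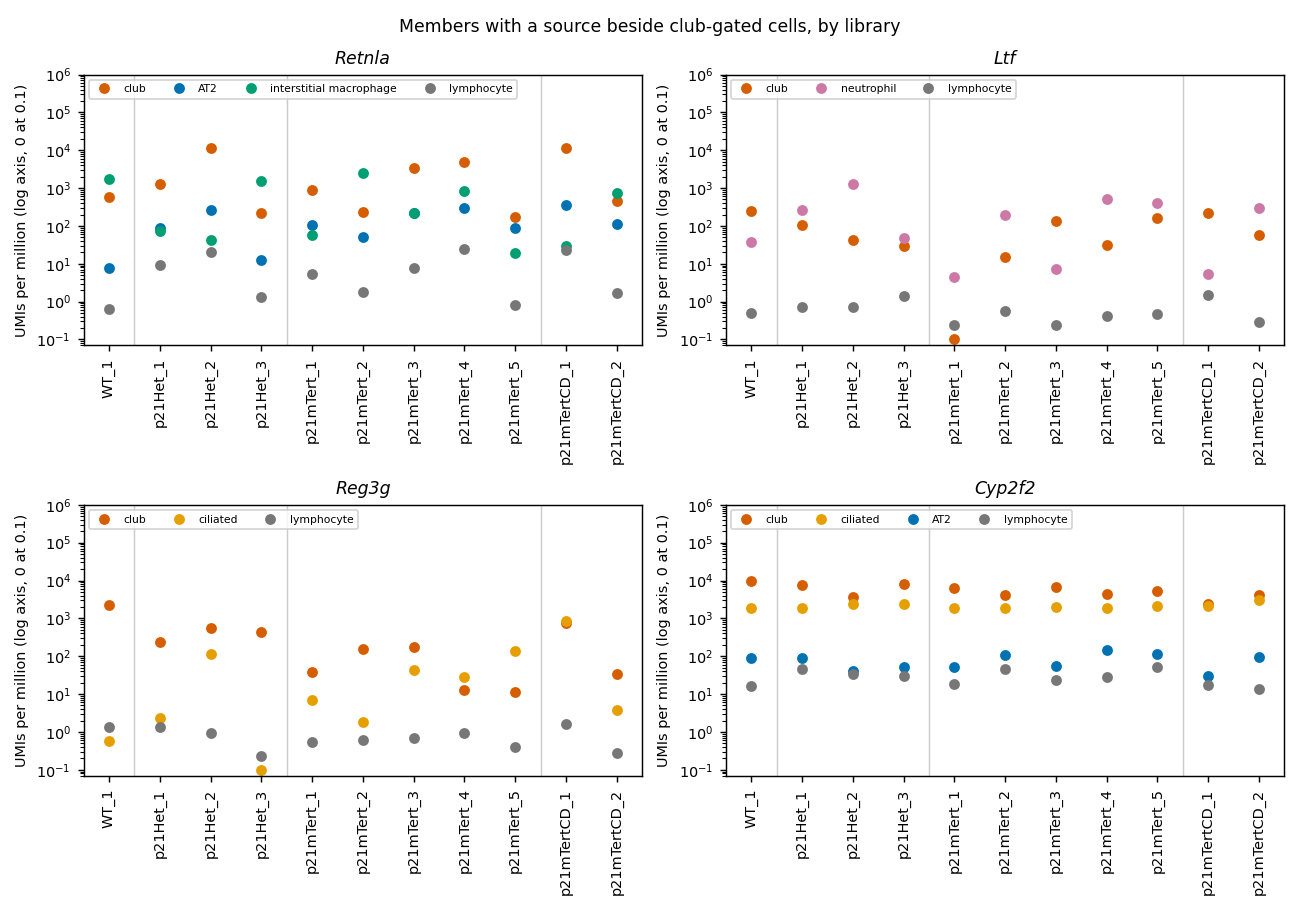
CPM by library on a log axis, coloured by cell class, with libraries in order of genotype and 0 drawn at 0.1. Panels show Retnla (club, AT2, interstitial macrophage and lymphocyte gates), Ltf (club, neutrophil, lymphocyte), Reg3g (club, ciliated, lymphocyte) and Cyp2f2 (club, ciliated, AT2, lymphocyte). Cyp2f2 in ciliated cells lies between 1854 and 3146 in all libraries, while Ltf in neutrophils spans 4.6 to 1264 and Retnla in macrophages 19.8 to 2435.

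Within club cells most members were found more often beside Scgb3a1. In kept, thinned club-gated cells, Scgb3a1 was found in 77.6% of cells with a Muc5b UMI against 14.5% of those without, higher in 10 of 11 libraries. It was found in 82.4% of cells with Bpifa1 against 21.1% (8 of 9 libraries), in 87.0% of cells with Reg3g against 19.4% (9 of 9), and in 92.3% of cells with Ltf against 21.5% (5 of 5). Of the 311 cells, 49 held Muc5b, 17 Bpifa1, 23 Reg3g and 13 Ltf, so the comparisons within single libraries rested on few cells. For Scgb3a2, which most club cells held, Scgb3a1 was found in 27.1% of cells with it against 5.26% without (11 of 11). The gap was small for Retnla and Cyp2f2, with 28.2% against 22.6% and 24.4% against 25%. The 318 club-gated barcodes over the UMI limit gave 97.8% against 21.2% for Bpifa1 and 87.1% against 16.5% for Muc5b. For Reg3g they gave 100% against 19.4% and for Ltf 83.8% against 25.3%. There, Retnla also differed, with 51.8% against 24.9%, and Bpifa1 was found in 68.0% of cells with Reg3g against 4.10% of those without. Each of Muc5b, Bpifa1, Reg3g and Ltf thus went with Scgb3a1 in both depth ranges. Among kept, thinned cells, pairs of these 4 genes rested on few cells. Pooled over libraries, Bpifa1 was found in 34.8% of the cells with Reg3g against 3.13% of those without, and higher in 5 of 9 libraries. For Muc5b the shares were 14.3% against 3.82%, higher in 4 of 11 libraries. Only 8 and 7 cells held both genes of these pairs. A compared library in which no cell held Bpifa1 was counted as not higher, so these counts do not measure evenness over libraries. Over the limit, Muc5b was found in 70% of the cells with Reg3g against 13.1% (11 of 11 libraries), and Reg3g in 59.5% of those with Ltf against 9.96% (9 of 10).

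The genes most like each member were named among 15704 genes that are not members, over 156 library-by-class sums, by Pearson's r of log2(CPM + 1). These sums share libraries and classes, so r is a description. Between members the highest r was 0.958, of Scgb1a1 with Scgb3a2, and Scgb3a1 with Muc5b was at 0.849. Outside the members, Scgb1a1 and Scgb3a2 both had Lrrc26 (r 0.864 and 0.890) and Gabrp (0.852 and 0.873) as nearest genes. Scgb3a1 was nearest to Bpifb1 (0.861), a secreted relative of Bpifa1, then to Chad (0.837) and to Tff2 (0.819), a trefoil peptide secreted with mucus. Muc5b was nearest to Chad (0.887) and Tff2 (0.877), Reg3g to Tff2 (0.858), and Bpifa1 to Chad (0.678) and Bpifb1 (0.673), below its r of 0.690 with Scgb3a1. Cyp2f2 was nearest to Cckar (0.917), Adam28 (0.910) and Gpx2 (0.901). Retnla had no gene above Abcc3 (0.660), and Ltf was nearest to Rhov (0.719) and to the neutrophil granule genes Ngp (0.717) and Camp (0.712). Gabrp, Chad and Cckar are markers of the gates used here.

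Genotypes were first compared over all kept cells, which asks whether the lung of each group yields more or less of a secretory transcript, through more cells or more RNA per cell. Summed over a library, fewer cells of a type and less RNA per cell cannot be told apart. No member passed edgeR's quasi-likelihood test in p21mTert against p21Het, where 0.0114% of 17503 genes did, and none had an unadjusted p under 0.05. None was called by DESeq2. Scgb1a1 was 5579 CPM in WT_1, 5165, 5193 and 1529 in the p21Het libraries, 4984, 5155, 4497, 5032 and 4581 in those of p21mTert, and 3268 and 2164 in those of p21mTertCD. The p21mTert libraries lay close together and between the p21Het libraries, of which p21Het_3 was the lowest of all 11. The log2 difference of p21mTert from p21Het was 0.26 (SE 0.33, adjusted p = 0.838).

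Scgb3a2 was 141 CPM in WT_1, 151, 149 and 52.6 in the p21Het libraries, 83.3, 89.6, 85.2, 99.2 and 64 in those of p21mTert, and 74.9 and 70.6 in those of p21mTertCD, a log2 difference of -0.51 for p21mTert against p21Het (SE 0.28, adjusted p = 0.679). WT_1, p21Het_1 and p21Het_2 were above all other libraries, and p21Het_3 was below them. The direction turned without the upper UMI limit (log2 difference 0.41), where the levels were 1215, 410 and 484 in p21Het and 688 to 1344 in p21mTert. Scgb3a1 (log2 difference -0.91, SE 1.01), Ltf (-0.89, SE 0.92), Retnla (-0.62, SE 0.63) and Reg3g (-0.57, SE 1.09) were lower on average in p21mTert with errors as large as the differences. Muc5b (-0.32), Bpifa1 (-0.16) and Cyp2f2 (0.26) were nearer 0, and the 6 adjusted p of members other than the secretoglobins were 0.726 to 0.966. The median of all genes lay between -0.03 and 0.02 in the 3 comparisons.

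Against p21mTertCD, p21mTert was also without a called member, where 0.00571% of genes were called. Cyp2f2 was the member with the smallest error: 120, 186, 194, 179 and 167 CPM in p21mTert, against 97.5 and 99.2 in p21mTertCD. Its log2 difference was 0.71 (SE 0.22, adjusted p = 0.229), with an unadjusted p under 0.05 by edgeR and by DESeq2, the only member for which this held, as it did for 2812 of 17503 genes by edgeR and 3271 by DESeq2. Scgb1a1 was 0.75 log2 units higher in p21mTert (adjusted p = 0.369). Scgb3a1 and Reg3g had differences of -2.19 and -2.48 (adjusted p = 0.352 and 0.328), which rested on p21mTertCD_1: Scgb3a1 was 185 CPM there and 4.01 in p21mTertCD_2, and Reg3g was 30.9 and 0.461. Between p21mTertCD and p21Het no member was called, with adjusted p of 0.827 to 0.946 and 0.120% of genes called. These 3 comparisons share their libraries.

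The single wild type library lay above all p21Het libraries for Scgb1a1, Reg3g and Cyp2f2, below them for Retnla and Ltf and within their range for the other 4 members. The wild type library was not tested against the others. WT_1 read 37 CPM of Scgb3a1 against 14.2 to 56.1 in p21Het, and 16.9 of Reg3g against 1.05 to 9.35. It read 183 of Cyp2f2 against 103 to 165, 44.4 of Retnla against 55.8 to 160, and 4.14 of Ltf against 9.8 to 31.3. The comparison of the 8 later libraries alone called no member either, with log2 differences for p21mTert against p21Het of 0.39 for Scgb1a1, -0.77 for Scgb3a1, -0.38 for Scgb3a2 and 0.40 for Cyp2f2. The first deposit holds 1 library of each of 3 groups, so no value can be had within it.

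With barcodes over 30000 UMIs included, the levels rose in nearly all libraries and some genotype differences turned. Scgb1a1 was then 40842 CPM in WT_1, 37417, 11673 and 12482 in p21Het_1 to 3, 26874, 52403, 27850, 32794 and 41220 in p21mTert_1 to 5, and 20707 and 16510 in p21mTertCD_1 and 2. p21Het_2, level with p21mTert in kept cells, was now the lowest library. Its log2 difference for p21mTert against p21Het was 0.85 (SE 0.39, adjusted p = 0.835), and that of Cyp2f2 0.77 (SE 0.32, adjusted p = 0.835). Cyp2f2 was 584, 274 and 324 in p21Het and 410, 955, 516, 576 and 883 in p21mTert, which overlapped. Reg3g (0.39) and Muc5b (0.40) turned from lower to higher in p21mTert, Scgb3a1 moved to -0.01, and Retnla (-0.65), Ltf (-0.56) and Bpifa1 (-0.19) kept their direction. No member was called, and the adjusted p were 0.835 to 0.998.

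**Figure D4:**
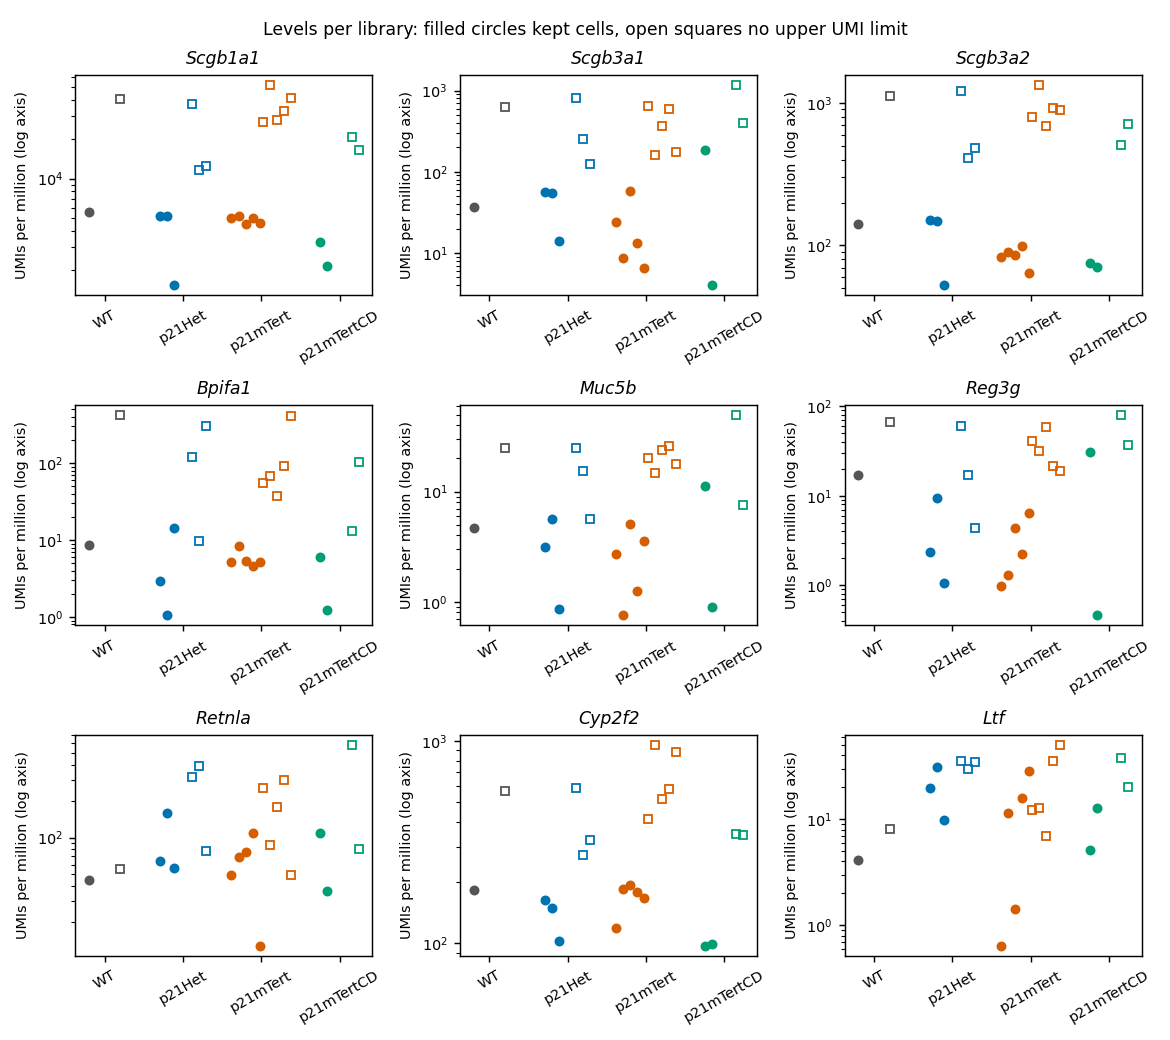
CPM of each member by library and genotype on a log axis; filled circles are kept cells and open squares have no upper UMI limit. The open squares lie above the filled circles for all members and libraries except Ltf in p21Het_2, and the filled circles of p21mTert overlap those of p21Het for each of the 9 members.

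Within club-gated cells the question is the share of these cells' UMIs that each gene takes. The number of UMIs per cell was not tested between genotypes. p21Het_3 (15 club cells) and p21mTertCD_2 (14) had too few, which left 2 p21Het, 5 p21mTert and 1 p21mTertCD library. In p21mTert against p21Het no member was called, where 0.0382% of 2620 genes were. 4 members had an unadjusted p under 0.05: Reg3g, Retnla and Scgb3a2, lower in p21mTert, and Bpifa1, higher. So had 105 of the 2620 genes. Scgb1a1 was 410859 CPM in WT_1, 435704 and 498634 in p21Het_1 and 2, 528850, 444587, 407655, 561726 and 448009 in p21mTert, and 399068 in p21mTertCD_1. It differed by 0.02 log2 units between p21mTert and p21Het. Cyp2f2 also differed by 0.02.

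Scgb3a2 was 16741 and 14669 CPM in p21Het_1 and 2 and 9163, 10399, 8705, 10967 and 6533 in p21mTert, with 12405 in WT_1 and 11520 in p21mTertCD_1. All 5 p21mTert libraries were the lowest of those tested, and how many of all genes were so ordered was not counted. The log2 difference was -0.74 (SE 0.34, 95% interval -1.41 to -0.07, adjusted p = 0.9996).

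Reg3g in the club gate was 237 and 571 CPM in p21Het_1 and 2 and 38, 154, 175, 13 and 11.4 in p21mTert, with 2214 in WT_1 and 774 in p21mTertCD_1. The 5 p21mTert libraries were all below the others, and here too the number of all genes so ordered was not counted. The log2 difference from p21Het was -2.42 (SE 0.64, adjusted p = 0.555), and in p21Het_2 all of its UMIs, 275, came from 1 cell. In p21Het_1 the highest cell held 42 Reg3g UMIs, and the 3 highest cells held 98.1% of them. The difference was called without p21Het_1 (-3.07, adjusted p = 0.00627), with low-count genes left in (-2.59, adjusted p = 5.09e-08), with a term for the deposit (-2.74, adjusted p = 0.0172) and in the later deposit alone (-2.89, adjusted p = 2.28e-06). It was also called without marked doublets (-3.12, adjusted p = 0.00465) and with 1 more marker in the gate (-3.16, adjusted p = 0.00669). In 4 of these settings (without p21Het_1, later deposit, doublets out, 1 more marker) p21Het_2, with its single cell, was the only p21Het library. It was not called with DESeq2, the replicate block, at least 10 cells per library (-2.20, adjusted p = 0.754), all deposited barcodes (-0.053, adjusted p = 0.9999) or no upper UMI limit (-0.066, adjusted p = 0.998). Without p21Het_2 it was -1.16 (adjusted p = 0.999).

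Retnla in the club gate was 1316 and 11446 CPM in p21Het_1 and 2, 890, 231, 3441, 4866 and 172 in p21mTert, 599 in WT_1 and 11405 in p21mTertCD_1, and the groups overlapped. The log2 difference was -1.92 for p21mTert against p21Het (SE 0.88), and it was called with low-count genes left in (-2.08, adjusted p = 9.05e-05), in the later deposit alone (-2.62, adjusted p = 0.000376) and with 1 more marker (-3.19, adjusted p = 0.0311). In the last 2 settings p21Het_2, the highest library, was the only p21Het library, and without it the difference turned to 0.94 (adjusted p = 0.999). Bpifa1 was 26.3 and 70.6 CPM in p21Het_1 and 2 and 10.9, 1166, 647, 17.4 and 235 in p21mTert, a log2 difference of 2.96 (SE 1.14). The groups overlapped, and the direction turned without the upper UMI limit (-1.41). Bpifa1 was called with low-count genes left in (2.76, adjusted p = 2.33e-05) and in the later deposit alone (2.63, adjusted p = 0.0150), where p21Het_2 was again the only p21Het library. It turned to -0.67 with libraries of at least 10 cells. Scgb3a1 (-1.33), Muc5b (0.33) and Ltf (-0.01) had no call.

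Without the upper limit, all 11 libraries had at least 20 club-gated cells, and no gene was called in p21mTert against p21Het by edgeR, with 588 of 8449 at an unadjusted p under 0.05. Reg3g was 1548, 839 and 297 CPM in p21Het_1 to 3, 1378, 506, 1455, 436 and 306 in p21mTert_1 to 5, 1410 in WT_1, and 2287 and 1540 in p21mTertCD_1 and 2. The groups overlapped, unlike in the kept cells. Scgb3a2 was 19690, 17217 and 21415 in p21Het and 18546, 14040, 12201, 15000 and 11432 in p21mTert, a log2 difference of -0.35 (SE 0.24, adjusted p = 0.845), with p21mTert_1 among the p21Het libraries. Retnla was 4802, 11283 and 215 in p21Het and 2035, 319, 1413, 2757 and 151 in p21mTert (-1.95, SE 1.05, adjusted p = 0.774). It was 10733 in p21mTertCD_1 and 342 in p21mTertCD_2, so each genotype with more than 1 library held both high and low libraries. Scgb3a1 was 43008 CPM in p21mTertCD_1 and 13462 in p21mTertCD_2, which lay within the p21mTert range of 1703 to 20612.

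**Figure D5:**
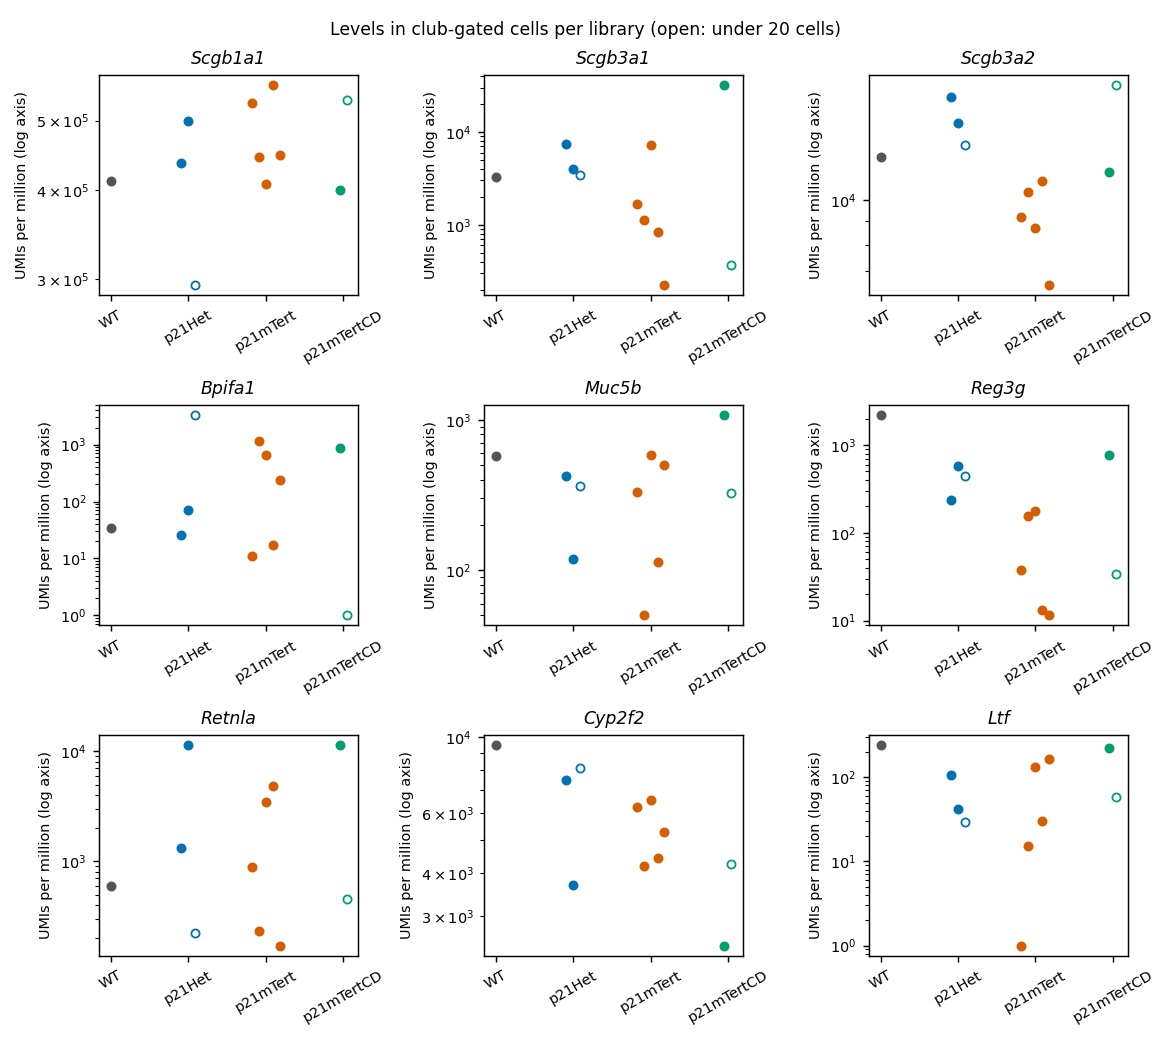
CPM of each member in club-gated cells by library and genotype on a log axis, with open symbols for libraries of fewer than 20 club cells and 0 drawn at 1. p21mTertCD_1 is highest for Scgb3a1 (32425) and Muc5b (1081). The 5 p21mTert libraries are below both summed p21Het libraries for Scgb3a2 and Reg3g, and how many of all genes are so ordered was not counted.

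In the 1 p21mTertCD library with enough club cells Scgb3a1 was 32425 CPM, against 1671, 1116, 7305, 835 and 223 in p21mTert and 7469 and 3970 in p21Het. p21mTert was lower by 4.19 log2 units (SE 0.77, adjusted p = 0.0262), and Scgb3a1 was 1 of 5 genes called in that comparison, 0.191% of those tested. The lone library is taken by the fit to vary like the others, and a gene could pass the low-count filter through it alone. The call was lost with DESeq2 (-4.20), without p21mTert_4 (-4.01, adjusted p = 0.111), with all deposited barcodes (-1.67, adjusted p = 0.766), with libraries of at least 10 club cells (-3.24, adjusted p = 0.999) and without the upper UMI limit (-1.65, adjusted p = 0.723). In p21mTertCD_2, whose 14 cells entered that setting of at least 10, Scgb3a1 was 369. Reg3g (-3.49, SE 0.74, adjusted p = 0.0627), Muc5b (-2.13, SE 0.63, adjusted p = 0.473) and Retnla (-2.80, SE 1.04, adjusted p = 0.791) lay in the same direction without a call in this fit. Reg3g was called with low-count genes left in, with the deposit term, in the later deposit alone, with the replicate block, without doublets and with 1 more marker (-4.50 to -3.27), and Muc5b and Retnla with low-count genes left in and in the later deposit alone. Retnla was also called without doublets and Ltf in the later deposit alone, each against the same lone library. Without the upper UMI limit Reg3g was -1.28 (adjusted p = 0.743). Clca1, a secreted goblet cell protein, was 1265 CPM in the club cells of p21mTertCD_1, 51.9 in p21Het_2 and 0 in the other libraries, and Pigr, the receptor that carries IgA into the airway fluid, was 1165 against 148 to 521. Between p21mTertCD and p21Het, Clca1 was 1 of 2 called genes (0.0763%) and no member was, with log2 differences of 2.86 for Scgb3a1, 2.46 for Muc5b and 4.26 for Bpifa1. These 3 and Ltf had an unadjusted p under 0.05, as had 137 of 2620 genes. Scgb3a1 and Bpifa1 were called with low-count genes left in, with the replicate block and in the later deposit alone, the last with Muc5b as well and with 1 library on each side.

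The second sources of the members were compared between p21mTert and p21Het in the same way. No member was called in ciliated (0.0734% of 10901 genes called), AT2 (0.0255% of 11784) or lymphocyte-gated cells (0.0289% of 13862). In neutrophils and in interstitial macrophages edgeR called 0 genes, with 697 and 397 at an unadjusted p under 0.05 and 11 and 2 called by DESeq2. The log2 differences were -0.18 for Cyp2f2 in ciliated cells (SE 0.13, 95% interval -0.44 to 0.07, adjusted p = 0.708), 0.30 for Retnla in AT2 cells (SE 0.76), 0.54 for Retnla in interstitial macrophages (SE 1.44) and -1.33 for Ltf in neutrophils (SE 1.35). Only the interval of Cyp2f2 was narrow. In lymphocytes, where the members measure free RNA, Scgb1a1, Scgb3a2 and Cyp2f2 differed between p21mTert and p21mTertCD at an unadjusted p under 0.05, as did 2310 of 13862 genes. edgeR called none of the 3, with 0.123% of genes called, and DESeq2 called Scgb1a1 among 404 genes. In ciliated cells of the same comparison 6 of the 7 members tested had an unadjusted p under 0.05, as had 1000 of 10901 genes. These were Scgb1a1 (1.53), higher in p21mTert, and Scgb3a1 (-2.62), Reg3g (-3.52), Retnla (-2.15), Cyp2f2 (-0.47) and Ltf (-4.62), lower. p21mTertCD_1 carried 4 of them: it read 56.6 CPM of Scgb3a1 against 2.82 in p21mTertCD_2 and 2.16 to 12.1 in p21mTert, 40.4 of Retnla against 0.939 and 0 to 8.01, and 69.5 of Ltf against 2.82 and 0 to 3.28. Its Reg3g level of 833, against 3.76 in p21mTertCD_2, was of the same kind. None was called, with 0.0275% of genes called and adjusted p from 0.237 to 0.447, and Ltf was called with doublets left out.

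Gene lists related to the members had no called gene in p21mTert against p21Het over all kept cells. The lists were chosen with earlier results known, and counts are given as a description. The median log2 difference was -0.22 for mucins and mucus assembly (12 of 14 genes tested), -0.37 for airway antimicrobial and immune-defence products (13 of 15), 0.24 for the xenobiotic metabolism of club cells (20 of 20) and 0.01 for secretory regulators and cytokine receptors (18 of 19). It was -0.92 for the neutrophil granule genes beside Ltf (16 of 16), and -0.30 for the alternative activation genes beside Retnla (16 of 16). In this order 0, 4, 2, 1, 6 and 3 genes of the lists had an unadjusted p under 0.05, as had 1268 of all 17503 genes. In club cells of p21mTert against p21mTertCD, the median was -3.07 for the 6 mucus genes tested, Clca1 among them. It was -0.16 for the 12 antimicrobial genes tested, with Pigr at -2.14, and 0.64 for 17 xenobiotic enzymes. These lists were read in the same sums as the members, with p21mTertCD_1 as the only p21mTertCD library. The low-count filter asks for a sufficient level in as many libraries as the smallest group holds, here 1. Genes high in p21mTertCD_1 alone could therefore enter, so these medians are a description only.

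The share of cells in the 2 airway gates gives the other side of the levels summed over a library. Of all kept cells, the club gate took 0.504% ± 0.0559 in p21mTert (SD, n = 5). The p21Het libraries gave 0.396% ± 0.188 (SD, n = 3), those of p21mTertCD 0.354% ± 0.147 (SD, n = 2), and WT_1 0.458% (exact 95% binomial interval 0.296 to 0.675). The p of an exact two-sided permutation test was 0.268 for p21mTert against p21Het and 0.0952 against p21mTertCD, or 0.402 and 0.381 when adjusted over 6 share tests, and the smallest p these designs allow are 0.0179 and 0.0476. Without p21Het_2 the first difference was 0.215 percentage points (exact permutation p = 0.0476, the smallest that 5 against 2 allows). The ciliated gate took 2.83% ± 0.769 in p21mTert (SD, n = 5). It took 2.00% ± 0.493 over the p21Het libraries (SD, n = 3, exact permutation p = 0.179), 1.70% ± 0.532 over those of p21mTertCD (SD, n = 2, exact permutation p = 0.190), with adjusted values of 0.381 for both, and 2.40% (2.01 to 2.84) in WT_1. Since 39.3% of club-gated barcodes lay over the UMI limit, these shares count the smaller-count barcodes only, and intervals cover counting error only.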

How the data were processed

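Dispase was instilled through the trachea, and lungs were digested with collagenase and dispase, strained and cleared of red cells, and single cells were captured with the 10x 3′ V2 kit, per the labels' protocols. The deposited tables hold raw UMI counts per gene and barcode, which the authors made by mapping reads to mm10 and counting with Cell Ranger, per the file headers and the series text. Barcode and gene lists were deposited beside them and hold no measurement. No per-sample column was left without a library.

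The 9 members and the lists beside them were chosen with earlier results of these data known. The filter kept barcodes of 1000 to 30000 UMIs whose mitochondrial share was 14% or less. Cells were given 1 of 18 classes by at least 3 markers and the highest share of a class's markers, with no member among the markers, and T, B and NK cells were joined as lymphocytes. Doublets were left in, and the top-scoring barcodes of Scrublet (scanpy 1.11.5, 0.8% per 1000 barcodes) were left out as an alternative only. Counts were summed per library and class with at least 20 cells, and tested with edgeR 4.0.16 (quasi-likelihood, TMM, all groups in 1 fit, R 4.3.3) over all genes that passed its filter, with Benjamini-Hochberg adjustment and calls at adjusted p under 0.05. Classes were compared with lymphocytes of the same libraries in 1 fit with the library as a term. DESeq2 1.42.0 was an alternative, as were other filters, gates, a term for the deposit, and libraries left out in turn. Levels are CPM (UMIs per 1000000), and intervals cover counting error only. Shares of cells were compared by exact two-sided permutation tests. Beyond the members, the text names up to 3 of the genes most like each member (at least 200 UMIs, log2 of CPM plus 1), some genes of the lists and gate markers. The fits were tested on simulated data. Positions are from GENCODE M21, and promoter sequences from RefSeq, both GRCm38. Python 3.11.15 with numpy 2.4.6, pandas 2.3.3 and scipy 1.17.1 was used.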

Additional observations from a re-analysis of the deposited data

Results flagged for a closer look

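5 of 81 groups of 5 libraries had 1 library that stood apart from the other 4, which chance gives in about 1 of 20 groups. Scgb3a1 in club-gated cells was 7305 CPM in p21mTert_3, against 223 to 1671 in the other p21mTert libraries. Bpifa1 over all kept cells was 8.42 in p21mTert_2, against 4.59 to 5.28. Without the upper UMI limit, Bpifa1 was 407 in p21mTert_5 over all cells, against 37.9 to 90.7, and 8755 in its club-gated cells, against 730 to 1936. Cyp2f2 was 9299 in the same club-gated cells of p21mTert_5, against 6326 to 6834.

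The kept cells left out 318 club-gated barcodes with over 30000 UMIs, which held member RNA well above the lymphocyte level. After thinning to 1000 UMIs, a Scgb3a1 UMI was found in 32.1% of them, a Muc5b UMI in 22.0%, a Bpifa1 UMI in 14.2% and an Ltf UMI in 11.6%, against 1.33%, 0.0880%, 0.499% and 0.0391% of kept lymphocytes thinned alike. Before thinning the shares were 52.2%, 53.8%, 26.4% and 46.2%. Whether each holds 1 cell was not tested.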

How the results depend on the processing

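Counts of called genes over all kept cells are given in the order p21mTert against p21Het (A), p21mTert against p21mTertCD (B) and p21mTertCD against p21Het (C), where the reported counts were 2, 1 and 21. DESeq2 called 31, 587 and 183, and the fit with the replicate block called 0, 0 and 0. No filter on low counts gave 5 in A, a term for the deposit 1 in A and 9 in C, the later deposit alone 1, 3 and 0, and both all deposited barcodes and no upper UMI limit 6 in C. In club-gated cells, where 1, 5 and 2 were reported, no filter gave 33, 23 and 7, and the later deposit alone 38, 22 and 16. DESeq2 gave 2 and 1 in B and C, a term for the deposit 5 in A, and the replicate block 0 in A and 7 in C. All deposited barcodes and no upper UMI limit both gave 0, 0 and 0, at least 10 cells per library 0, 1 and 0, doublets left out 19 and 15 in A and B, and 1 more marker 20 and 11. In lymphocytes DESeq2 called 20, 404 and 450. In p21mTert against p21Het it called 14 genes in AT2, 18 in ciliated, 11 in neutrophil and 2 in interstitial macrophage-gated cells, and leaving out doublets gave 7 in AT2 and 13 in ciliated cells. Without TMM, 4 members were higher in neutrophils than in lymphocytes. The settings of no upper UMI limit, at least 10 cells, a marker lead of 0.2 and no TMM, and those of the gates other than club, were chosen after seeing the data.

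Some members turned direction in p21mTert against p21Het. Over all kept cells these were Scgb3a2 (0.40 with all deposited barcodes, 0.41 with no upper UMI limit), Muc5b (0.33, 0.40, and 0.28 with doublets left out), Reg3g (0.35 and 0.39) and Bpifa1 (0.97 with the replicate block). In club-gated cells they were Scgb1a1 (-0.14 with no filter, -0.014 with the deposit term, -0.36 in the later deposit, -0.32 without doublets, -0.34 with 1 more marker), Bpifa1 (-1.29 with all barcodes, -0.67 with at least 10 cells, -1.41 with no upper limit) and Muc5b (-0.61 with the replicate block, -0.12 with all barcodes, -0.11 with no upper limit). Cyp2f2 was -0.084 with no filter, and Ltf 0.65 in the later deposit, 1.51 without doublets, 0.40 with 1 more marker and 0.32 with at least 10 cells. Muc5b in ciliated cells against lymphocytes was -0.21 with a marker lead of 0.2, and in neutrophils it lost its call without doublets (1.04). As shares of epithelial-gated cells, the club difference turned to -0.0916 points for p21mTert against p21mTertCD and 0.522 for p21mTertCD against p21Het, and the ciliated one to 0.441. The causes were not tested.

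With 1 library left out, called genes over all kept cells ranged 1 to 7, 1 to 138 and 0 to 97, in club cells 1 to 22, 3 to 12 and 1 to 3, and in lymphocytes 1 to 7, 0 to 2261 and 1 to 2144. They ranged 3 to 8 in AT2, 4 to 16 in ciliated, 0 to 1 in neutrophil and 0 to 1 in interstitial macrophage-gated cells. Over all kept cells p21mTert against p21Het then ranged -0.66 to 1.58 for Bpifa1, -0.76 to 0.47 for Muc5b, -1.02 to 0.89 for Reg3g, -0.89 to 0.092 for Retnla and -0.11 to 0.59 for Scgb1a1. In club cells it ranged -0.15 to 0.21 for Cyp2f2, -0.43 to 0.36 for Ltf, -0.15 to 1.03 for Muc5b, -3.07 to -1.16 for Reg3g, -2.83 to 0.94 for Retnla and -0.35 to 0.50 for Scgb1a1. It ranged -1.88 to 0.85 for Ltf in neutrophils, -1.20 to 4.88 for Reg3g in ciliated cells, -0.21 to 1.66 for Retnla in AT2 cells and -0.86 to 3.78 in interstitial macrophages. Share differences ranged 0.0379 to 0.215 (club, p21mTert against p21Het), -0.146 to 0.0650 (club, p21mTertCD against p21Het) and -0.683 to 0.0692 (ciliated, p21mTertCD against p21Het). Leaving out libraries in the fit of classes against lymphocytes was not run. The deviations of same-numbered p21Het and p21mTert libraries had r = 0.215, -0.110 and -0.334 for numbers 1, 2 and 3. Those of number 1 are both of the first deposit. Between different numbers r reached 0.542, for p21Het_2 with a p21mTert library. The numbers were not taken as pairs. The block result for Scgb3a1 in club cells, p21mTert against p21mTertCD, was -4.60. The club-gated sums rest on 20 to 52 cells per library.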

Other observations

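Scgb1a1 RNA over the UMI limit also lay outside the club gate. 237 barcodes over the limit with no class held 22.2% of all Scgb1a1 UMIs in the deposited tables, and 110 of them had over 10% of their own UMIs in Scgb1a1. They carried a median of 6 club markers, against 10 in the club-gated barcodes over the limit and 0 in kept barcodes with no class. 216 ciliated-gated barcodes over the limit held 13.4%, and 78 of these had over 10% in Scgb1a1, against 28 of 1658 kept ciliated-gated cells. The 1179 AT2-gated barcodes over the limit held 1.85%.

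Muc5b and Reg3g outside the club gate came from very few cells. The ciliated gate read 122 CPM of Muc5b in p21mTertCD_1 and 0 to 3.11 in the other libraries, and the 10 highest cells carried 97.2% of that gate's Muc5b UMIs. Ltf in ciliated-gated cells was 69.5 in p21mTertCD_1 and 23.0 in p21Het_2. In the club gate of p21mTertCD_1, the mucus-associated Tff2 stood at 613 CPM, above the 8.39 to 403 of the other libraries, while Bpifb1, at 452, lay within their range of 8.70 to 1121.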
